A study of Homo sapiens with 30 samples.

Results

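Interferons switch on a set of genes that limit virus growth and load peptides onto major histocompatibility complex (MHC) class I molecules. The list followed here holds 34 such genes: 4 transcription factors, 21 effectors and 9 genes of antigen presentation. Each gene was read from its brightest probe set among those annotated to a single gene, chosen by mean log2 level over all 30 arrays. A probe set was found for 29 of the 34 genes, out of 12690 genes in all. The 5 without one, STAT2, IRF2, IFI27, IFIT2 and IFITM3, were not analysed here. Of the 29 genes, 17 were bright enough to be among the 7614 genes tested, and the other 12 are given as intensities.

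The study compared gene expression under hypoxia in 3 established human carcinoma lines on a custom Affymetrix array, with RNA from cells in monolayer culture and 1 array per sample. RCC4 is a renal carcinoma line, with 10 arrays of cells that lack VHL (VHL-null) and 10 of cells carrying a reintroduced wild-type VHL (VHL-restored). VHL is part of the ubiquitin ligase that removes the hypoxia-inducible transcription factors in oxygen. The colon carcinoma line HCT116 (6 arrays) and the non-small cell lung cancer line H1299 (4 arrays) came without p53 (p53-null) or with it, H1299 by reintroduction (p53 wild type). Hypoxia was oxygen under 0.01%. It lasted 0, 1, 2, 4, 6 or 18 h for RCC4, and further cells were reoxygenated for 1 h or 4 h once they had spent 18 h in it. It lasted 0, 12 or 24 h for HCT116 and 0 h or 24 h for H1299. For RCC4 at 0 h and 18 h each genotype had 2 replicates, independent ones by the design text, and every other group held 1 array. No label mentions an interferon treatment, and none names separate clones of a genotype.

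Type I interferons signal through the kinases JAK1 and TYK2 to a complex that holds STAT2 and IRF9 and binds the interferon-stimulated response element in promoters. Interferon-gamma acts through another element, the gamma-activated site. Many of the genes also have a basal level in cells that have met no interferon, and this level differs between tumour lines. Class I molecules consist of an HLA heavy chain, beta-2-microglobulin (B2M) and a peptide, which the transporter TAP1 and TAP2 brings into the endoplasmic reticulum and tapasin (TAPBP) helps to load.

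The promoters of the genes on which the results below turn are shown first. They come from RefSeq on GRCh38.p14 and run from 250 bases before to 50 bases after a gene's start, 300 bases in all. For OAS3, IFIT3 and BST2, which separated RCC4 from H1299 most, the whole promoter is printed: OAS3 at chr12:112938224-112938523 (plus strand), IFIT3 at chr10:89327747-89328046 (plus strand) and BST2 at chr19:17405581-17405880 (minus strand). Capitals mark each match to the core of the interferon-stimulated response element, searched as GAAA, any 2 bases and GAAA on either strand, so that TTTC, any 2 bases and TTTC is the same element on the other strand. Matches may overlap, as in BST2.
OAS3: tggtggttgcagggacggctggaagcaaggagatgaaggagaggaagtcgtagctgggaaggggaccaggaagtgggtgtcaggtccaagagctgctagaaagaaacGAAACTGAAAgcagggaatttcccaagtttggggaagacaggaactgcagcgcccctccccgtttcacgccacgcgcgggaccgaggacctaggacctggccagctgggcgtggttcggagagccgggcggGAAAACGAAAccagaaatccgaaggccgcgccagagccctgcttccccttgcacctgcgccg
IFIT3: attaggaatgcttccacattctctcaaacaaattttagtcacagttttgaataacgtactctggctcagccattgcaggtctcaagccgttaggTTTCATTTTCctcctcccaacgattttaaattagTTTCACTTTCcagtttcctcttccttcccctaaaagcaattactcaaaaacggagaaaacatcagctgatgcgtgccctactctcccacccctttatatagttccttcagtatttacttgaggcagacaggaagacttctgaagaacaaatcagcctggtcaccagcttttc
BST2: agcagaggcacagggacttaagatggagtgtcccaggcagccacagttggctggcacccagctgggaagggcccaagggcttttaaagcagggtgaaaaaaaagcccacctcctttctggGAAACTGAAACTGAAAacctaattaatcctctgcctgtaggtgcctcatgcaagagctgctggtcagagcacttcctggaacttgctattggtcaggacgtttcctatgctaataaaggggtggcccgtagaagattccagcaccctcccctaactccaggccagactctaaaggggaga

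Each of these promoters held 2 matches, and for IFIT3 the one shown is 1 of 2 promoters in the table. In OAS3 the first began 143 bases before the start, and in IFIT3 and BST2 it began 156 and 130 bases before it. For other members that were called between lines or genotypes, only a window around the matches is shown: ISG15 at chr1:1013364-1013419 (plus strand), ISG20 at chr15:88638927-88638976 (plus), TAPBP at chr6:33314063-33314118 (minus), B2M at chr15:44711353-44711408 (plus), IFITM1 at chr11:313980-314063 (plus), IFI6 at chr1:27672256-27672368 (minus), HLA-F at chr6:29723258-29723307 (plus) and IFI44 at chr1:78649751-78649800 (plus). MX1, called between lines when all genes were tested, also had promoters with a match but is not shown. The capitals mark the same element.
ISG15: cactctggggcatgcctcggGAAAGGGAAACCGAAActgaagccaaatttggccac
ISG20: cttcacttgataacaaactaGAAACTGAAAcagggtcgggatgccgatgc
TAPBP: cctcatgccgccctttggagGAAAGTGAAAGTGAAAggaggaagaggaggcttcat
B2M: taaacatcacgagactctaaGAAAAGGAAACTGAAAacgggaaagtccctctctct
IFITM1: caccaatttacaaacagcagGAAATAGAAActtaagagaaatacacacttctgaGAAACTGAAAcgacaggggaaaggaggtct
IFI6: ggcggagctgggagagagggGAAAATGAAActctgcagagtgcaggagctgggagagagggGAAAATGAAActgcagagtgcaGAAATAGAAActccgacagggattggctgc
HLA-F: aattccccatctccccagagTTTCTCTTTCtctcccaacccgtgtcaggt
IFI44: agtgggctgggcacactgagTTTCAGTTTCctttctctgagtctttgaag

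IFI6 held 3 matches, ISG15, TAPBP, B2M and IFITM1 held 2, and ISG20, HLA-F and IFI44 held 1. The table held 35 promoters of 26 member genes, of which 22 promoters (62.9%) and 18 genes had a match. Among all 35116 promoters of 27305 genes in the table, 1255 promoters (3.57%) had one. The gamma-activated site, searched as TTCNNNGAA on both strands, was in 9 of the 35 promoters against 7.66% of all. ADAR, HLA-B, HLA-C, IRF9, STAT2, SP100, OAS1 and IFI35 had no match to the first element in the windows given for them. IRF2, IRF7, IFIT2, IFITM2, MX2, OAS2, HLA-E and BTN2A2 had no entry. The matches describe the sequences, and the array measured no binding.

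The deposited values are linear intensities in whole numbers, and some entries are null. The meaning of a null entry is not given in the sources used here, and it was taken as 0. On 18 arrays, called set 1, 5 control entries were blank, and on the other 12, called set 2, they had values. All arrays of set 2 were of RCC4, and they were brighter, with a median listed intensity of 201 to 222 against 145 to 174 in set 1. Intensities of members in different lines are therefore mostly set side by side within set 1. The cell type markers and some members near null are given over both sets. Tests between lines and in all 20 RCC4 arrays carry the set as a term. Tests used log2(intensity + 16), with each array centred on its median, so that a difference is relative to the median gene and understates changes of dim genes. A result is called where limma's adjusted p (Benjamini-Hochberg, over all genes tested) was under 0.05. The number of arrays limits the precision.

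The filter kept the upper 60% of genes by mean log2 level, at 6.80 or more. IFI35 (7.22) and OAS3 (7.43) lay just inside it, and IFI44 (6.74), BST2 (6.72) and IFIT3 (6.56) just outside. For the cell type markers that follow, the RCC4 ranges include the brighter arrays of set 2, which the other lines lack. The 4 renal markers found summed to 456 to 799 in RCC4, 269 to 328 in HCT116 and 224 to 271 in H1299. Of these, 1 to 2 were above the array's median in RCC4 and 0 to 1 in each other line. Among them the transcription factor PAX8 was at 272 to 564 in RCC4, against 126 to 155 in HCT116 and 105 to 136 in H1299. Neither the colon nor the lung markers told the lines apart. The 7 colon markers found summed to 418 to 722 in RCC4, 393 to 500 in HCT116 and 394 to 446 in H1299; on every HCT116 array 2 of them were above the array's median and KRT20 and GPA33 were null. The lung markers summed to 678 to 917, 677 to 738 and 667 to 701. The 8 leukocyte markers found summed to 1379 to 1709 in RCC4, 1534 to 1590 in HCT116 and 1475 to 1590 in H1299, with 2 to 4 of them above the array's median in RCC4 and 4 in each other line. PTPRC reached at most 48 on any array, and CD79A, a B cell marker, had 508 to 646, 601 to 698 and 624 to 686. Their part in the results was not tested. VHL was dim, at 14 to 109 in VHL-null and 0 to 40 in VHL-restored cells, and the part of the transcript its probes read is not stated, so it does not check the genotype.

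The first comparison is between the untreated lines. The antiviral genes OAS3, IFIT3 and BST2 and the class I genes B2M, HLA-B and TAPBP were higher in RCC4 than in H1299. By contrast, ISG15 and ISG20 were lower in RCC4 than in HCT116. The fit held 4 untreated RCC4 arrays and 2 of each other line, of both genotypes. With its array set term, a difference from RCC4 rests on the 2 RCC4 arrays of set 1, and those of set 2 add only to the estimate of the spread. Against HCT116, 8 of the 17 members were called, 4 higher and 4 lower in RCC4, where 37.1% of all genes tested were called, 14.5% higher and 22.6% lower. Against H1299, 5 were called, all higher in RCC4, at a background of 33.2%, with 13.1% higher. HCT116 and H1299 differed in 2 members, both higher in HCT116, at a background of 7.28%, with 2.98% higher. These shares of members, in particular against HCT116, are not far from those of all genes, so the number of calls is no result about the list, and what follows describes its members. The 8 calls against HCT116 rested in part on single arrays: 2 were left without VHL-restored replicate 1 (TAPBP and ISG15) and 5 without the p53-null HCT116 array (these and OAS3, B2M and ISG20). Of the 2 calls between HCT116 and H1299, only 1 was left without either p53-null array. In a culture, more RNA per cell and more cells that hold the RNA cannot be told apart.

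OAS3 makes the 2'-5' oligoadenylates that activate RNase L. In H1299 it was null on both p53-null arrays and 1 and 3 on the p53 wild-type arrays. In HCT116 it was 58, 83 and 103 in p53-null and 109, 99 and 123 in p53 wild-type cells at 0, 12 and 24 h. On the 8 RCC4 arrays of set 1 it ran from 130 over a median of 190.5 to 224. The 3 lines thus did not overlap in intensity. In centred values, which the tests use, set 1 RCC4 went down to -0.11 and HCT116 up to -0.03, so these 2 lines overlapped. On the log2(intensity + 16) scale the untreated difference was 3.52 (SE 0.22, limma adjusted p = 8.85e-05) between RCC4 and H1299, 2.57 (SE 0.22, limma adjusted p = 0.000904) between HCT116 and H1299, and 0.95 (SE 0.22, limma adjusted p = 0.013) between RCC4 and HCT116. OAS3 passed the filter through its level in RCC4, where it is high. With no filter the first 2 differences were called too (limma adjusted p = 0.00079 and 0.00665). With H1299 at or near null, the size of these 2 rests on the pseudocount: over the alternatives it ran from 1.89 to 6.94 and from 1.19 to 5.86.

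IFIT3, which binds foreign RNA together with IFIT1, and BST2, the tetherin that holds budding virus at the cell surface, separated RCC4 from HCT116 more widely than OAS3 did. IFIT3 was null on 9 of the 10 HCT116 and H1299 arrays and 2 on the other. On the 8 RCC4 arrays of set 1 it ran from 112 over 184 to 251. BST2 was null on 4 of the 10 other arrays and at most 12, against 129, 179.5 and 219 (lowest, median, highest) on the same RCC4 arrays. Both genes were under the filter. Each had 2 probe sets, and the dimmer one was listed on 1 array for IFIT3 and on 0 for BST2. The differences thus rest on the brighter probe set of each gene, and the mean of both was not among the alternatives below. When all 12690 genes were tested, IFIT3 differed by 3.46 from HCT116 (limma adjusted p = 0.000105) and 3.57 from H1299 (limma adjusted p = 9.85e-05). BST2 differed by 2.92 (limma adjusted p = 0.000358) and 3.43 (limma adjusted p = 0.000287). In these fits 25.4% and 21.5% of all genes were called. The sizes rest on the pseudocount: over 13 alternatives each, they ran from 1.86 to 6.63 and from 1.90 to 7.45 for IFIT3, and from 1.67 to 4.28 and from 1.84 to 6.60 for BST2, with adjusted p at or under 0.00818.

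**Figure D1:**
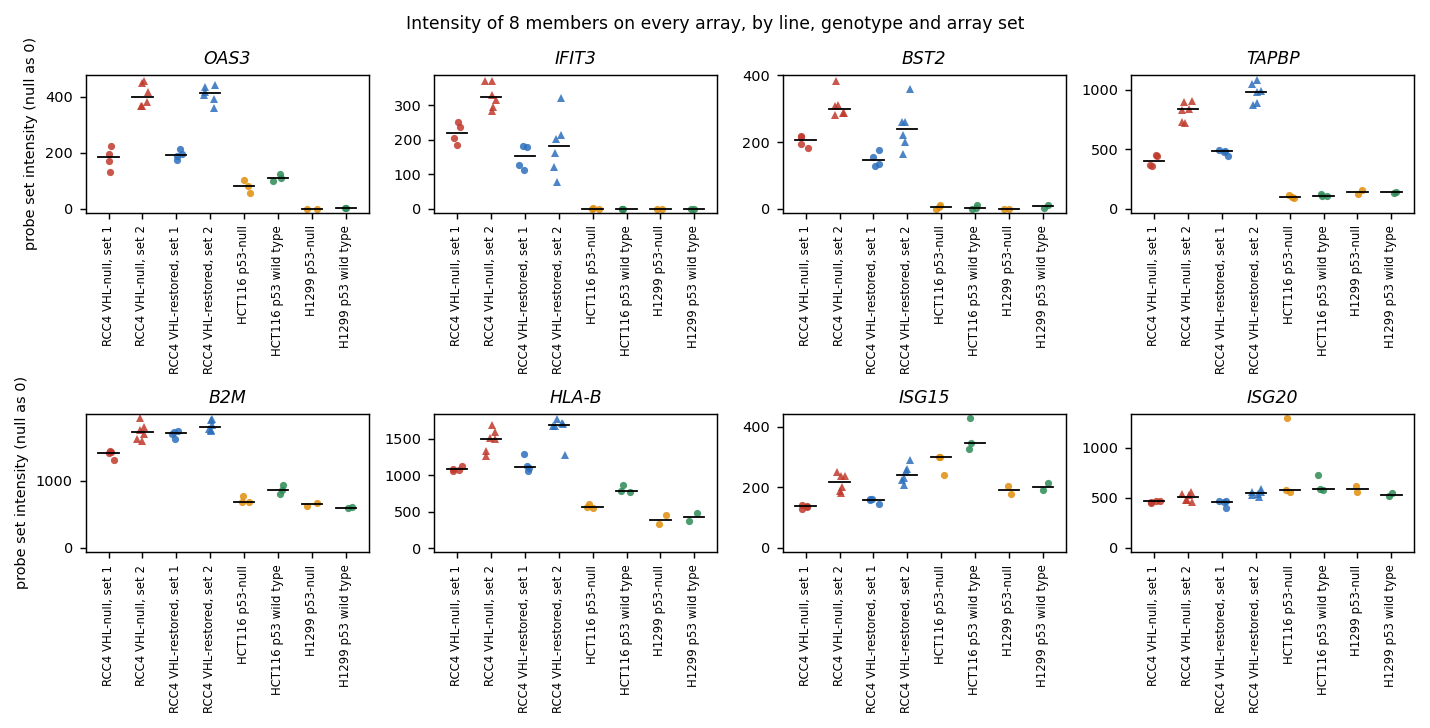
Probe set intensity (linear scale, null as 0, each panel with its own axis) of 8 genes on every array, by line and genotype, with RCC4 split into array set 1 (circles) and set 2 (triangles) and a bar at the median of each group. OAS3, IFIT3 and BST2 are at or near 0 in H1299, IFIT3 and BST2 also in HCT116, and TAPBP, B2M and HLA-B are higher on all RCC4 arrays than on all others.

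Not all effectors followed. ISG15, a ubiquitin-like modifier, was 300, 240 and 300 in p53-null and 348, 327 and 428 in p53 wild-type HCT116 cells at 0, 12 and 24 h. It was 179 and 205 in p53-null and 191 and 213 in p53 wild-type H1299 cells at 0 h and 24 h, and 130 to 162 with a median of 142.5 on the 8 set 1 RCC4 arrays. The order was therefore HCT116, H1299 and RCC4, without overlap. Untreated RCC4 lay below HCT116 by a log2 difference of -1.18 (SE 0.15, limma adjusted p = 0.00113), which stayed called under all 17 alternatives. HCT116 lay above H1299 by 0.78 (limma adjusted p = 0.0248), a call that held under 11 of 17 alternatives (adjusted p up to 0.119).

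ISG20, an RNA exonuclease, was also lower in RCC4 than in HCT116, with a log2 difference of -1.19 (SE 0.25, limma adjusted p = 0.00839). Its set 1 RCC4 arrays ran from 395 over 462.5 to 472. HCT116 had 1291, 578 and 561 in p53-null and 729, 583 and 582 in p53 wild-type cells at 0, 12 and 24 h. The untreated p53-null HCT116 array stood apart, and without it the difference was -0.78 (limma adjusted p = 0.0159). H1299 lay at 514 to 615, which overlapped HCT116, and was not called against RCC4 (limma adjusted p = 0.253).

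IFITM1, a membrane protein that blocks virus entry, and IRF7, the factor that amplifies interferon induction, were lower in RCC4 than in HCT116, by log2 differences of -0.52 (limma adjusted p = 0.0286) and -0.33 (limma adjusted p = 0.0478). IFITM1 had intensities of 408 to 460 in HCT116, 344 to 391 in H1299 and 314 to 382 in set 1 RCC4. IRF7 overlapped between all 3 lines, at 326 to 397, 310 to 326 and 282 to 383. Its call held under 4 of 17 alternatives, and that of IFITM1 under 10. IFI6, a mitochondrial protein that delays apoptosis, was higher in RCC4, by 0.31 against HCT116 (limma adjusted p = 0.0389) and 0.41 against H1299 (limma adjusted p = 0.0156). Its intensities were 250 to 283 on the set 1 RCC4 arrays, above 181 to 208 in HCT116 and 162 to 194 in H1299. The call held under 7 of 17 alternatives against HCT116 (0.096 to 0.47, adjusted p up to 0.655) and 13 of 17 against H1299 (adjusted p up to 0.371).

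Of the remaining tested effectors, ADAR, which edits adenosine in double-stranded RNA, IFI35 and IFITM2 were not called between any lines. IRF9, the DNA-binding subunit of the STAT complex, was not called either. IFITM2 had 1125 to 1371 on the set 1 RCC4 arrays, 1167 to 1629 in HCT116 and 1227 to 1317 in H1299, so the lines overlapped. IRF9 lay at 325 to 429, 270 to 297 and 261 to 284, which was 0.19 and 0.28 above the other lines at 0 h (limma adjusted p = 0.251 and 0.117). IFITM1 and IFITM2 are close copies in a row on chromosome 11, as the HLA heavy chains are near-identical on chromosome 6, and the probe sequences were not used here, so probes shared between copies are possible.

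In antigen presentation, TAPBP had the largest difference between RCC4 and HCT116 among the members tested. It had 116, 88 and 99 in p53-null and 124, 107 and 109 in p53 wild-type HCT116 cells. H1299 had 156 and 127 in p53-null and 141 and 134 in p53 wild-type cells. The set 1 RCC4 arrays lay at 358 to 496 with a median of 444.5, and none overlapped. The untreated difference was 1.50 against HCT116 (2.82-fold, SE 0.17, limma adjusted p = 0.000623) and 1.25 against H1299 (2.37-fold, SE 0.17, limma adjusted p = 0.00149). Both stayed called under all 17 alternatives.

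B2M, the light chain, had 679, 683 and 773 in p53-null and 930, 856 and 795 in p53 wild-type HCT116 cells, and 588 to 665 in H1299. The set 1 RCC4 arrays ran from 1307 over 1527 to 1741, above every other array. The difference was 0.81 against HCT116 (1.76-fold, limma adjusted p = 0.00908) and 1.21 against H1299 (2.32-fold, limma adjusted p = 0.00175). The heavy chain HLA-B had 553, 564 and 608 in p53-null and 778, 766 and 865 in p53 wild-type HCT116 cells. It had 324 and 447 in p53-null and 483 and 370 in p53 wild-type H1299 cells, against 1055, 1096 and 1294 (lowest, median, highest) in set 1 RCC4. The 3 lines kept apart here too. HLA-B was called against H1299, at 1.31 (2.47-fold, limma adjusted p = 0.00288), and not against HCT116, at 0.58 (limma adjusted p = 0.0613).

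The other presentation genes differed less. TAP2 lay at 208 to 258 on the set 1 RCC4 arrays and at 136 to 177 on all others, with differences of 0.24 and 0.29 that were not called (limma adjusted p = 0.101 and 0.0631). TAP1, its partner in the transporter, overlapped between the lines at 478 to 518, 419 to 678 and 479 to 633. HLA-F, a non-classical class I heavy chain, lay at 316 to 370 in set 1 RCC4, which overlapped both 342 to 357 in HCT116 and 306 to 337 in H1299. BTN2A2, a butyrophilin of the B7-like family, lay at 254 to 330 in RCC4 but had a single high array in each other line, described with the p53 genotypes.

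Counted over the 8 set 1 RCC4 arrays and the 10 HCT116 and H1299 arrays in centred values, IFI6, TAP2, TAPBP, B2M and HLA-B lay above without overlap, 5 of 17 members against 9.97% of all genes. ISG15 and ISG20 lay below, 2 of 17 against 24.8%. HCT116 lay above H1299 without overlap in ISG15, IFITM1, OAS3, B2M, HLA-B and HLA-F, 6 of 17 against 9.94%, and below it in TAPBP, 1 of 17 against 10.5%. The median difference of the 17 members was 0.19 between RCC4 and HCT116, where that of all genes was -0.08. It was 0.27 against -0.08 between RCC4 and H1299, and 0.14 against 0.02 between HCT116 and H1299. With only the members listed on every array, the first median was 0.0070. The scaling matters for such counts: without centring, all genes shifted by a median of 0.08 in place of -0.08 between RCC4 and HCT116, and calls that were higher in RCC4 made up 62.3% in place of 39.1%. Between RCC4 and H1299 they made up 60.5% in place of 39.4%. The members called kept their direction.

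The 9 other members under the filter were near null. MX2, OAS2 and HLA-E were null on all 30 arrays. MX1, a GTPase that blocks virus nucleocapsids, was 17 to 60 on the 10 HCT116 and H1299 arrays and null on 16 of 20 RCC4 arrays, with at most 19 on the rest. It was thus lower where OAS3, IFIT3 and BST2 were higher, by -1.67 against HCT116 (limma adjusted p = 0.0182) and -2.11 against H1299 (limma adjusted p = 0.00931) with all genes tested. These sizes rest on the null values: over 13 alternatives each they ran from -3.98 to -0.73, called in 8, and from -4.56 to -0.97, called in 11, and neither was called with a pseudocount of 1. OAS1 was listed on 26 arrays, at 56 or less. IFIT1 was listed on 6 RCC4 arrays and on no other, at most 39, GBP1 on 3, HLA-C on 5 and SP100 on 1, each at 13 or less. IFI44 was listed on all 30 arrays, at 44 to 54 in H1299, 66 to 74 in HCT116 and 66 to 126 in set 1 RCC4.

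**Figure D2:**
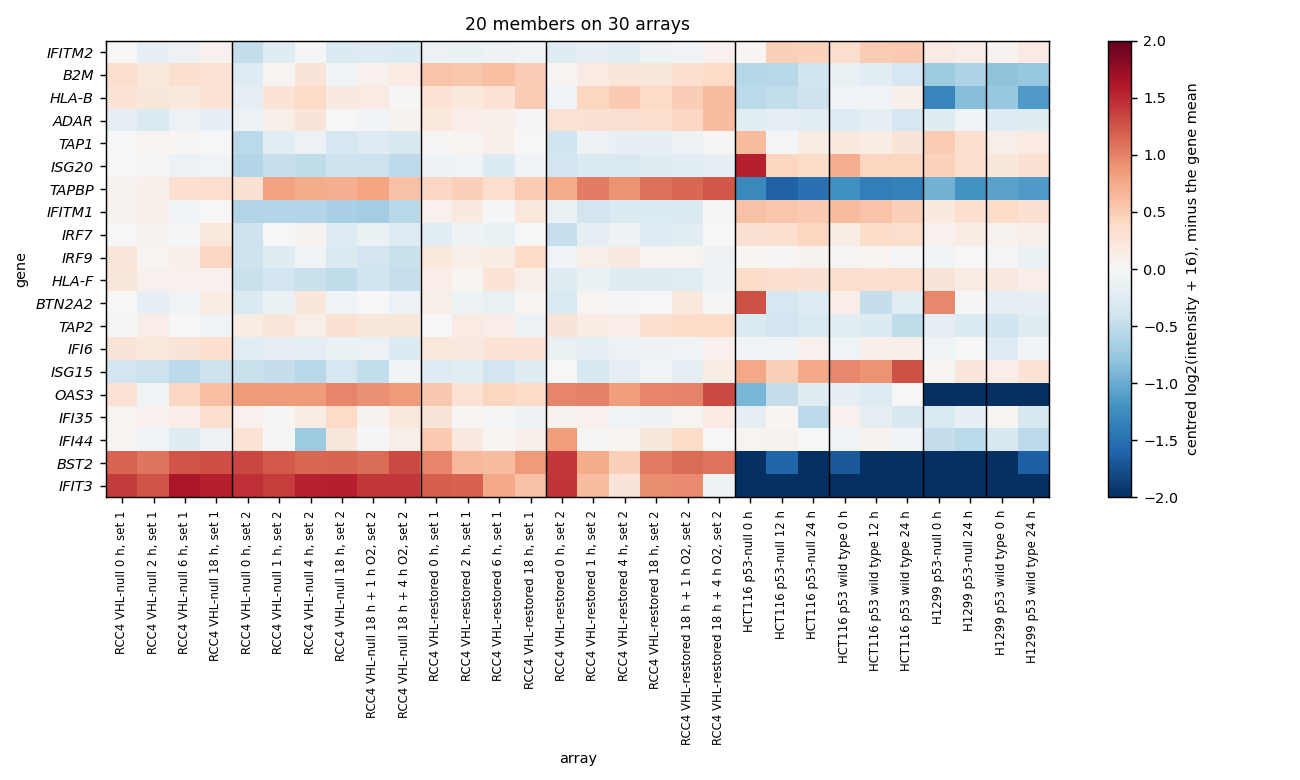
Centred log2(intensity + 16) minus the mean of the gene over all 30 arrays (colour, limited to the range from -2 to 2), for 17 tested genes and for IFI44, BST2 and IFIT3 below the filter (y axis), on each array (x axis, by line, genotype, hours of hypoxia and array set). OAS3 in H1299 and IFIT3 and BST2 outside RCC4 are at the low end, TAPBP is high in RCC4, and ISG20 and BTN2A2 are high on the untreated p53-null HCT116 array.

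Of 80 other genes of the pathway, 59 had a probe set and 33 were tested. Between RCC4 and HCT116, 12 were called, 5 higher and 7 lower in RCC4, where 37.1% of all genes were called. This number, like those that follow, is no result about the pathway as a whole. TRIM22, an antiviral ubiquitin ligase, was null on all HCT116 arrays and on 3 of 4 H1299 arrays, and lay at 225 to 298 on the set 1 RCC4 arrays (log2 difference 4.05, limma adjusted p = 2.6e-06). TRIM22 passed the filter through RCC4 alone, and the size rests on the pseudocount, from 2.31 to 7.96 over 10 alternatives, all called. PSMB8, a subunit of the immunoproteasome encoded beside TAP1 and TAP2, lay at 472 to 582 against 171 to 193 in HCT116 and 173 to 186 in H1299 (1.33 against HCT116, limma adjusted p = 0.000284). HLA-DMB, of peptide loading on class II, was higher by 0.64, and the receptor chain IL10RB and OASL, a relative of the OAS genes, were lower, with differences of -0.75 and -1.19. OASL had 1383 on the untreated p53-null HCT116 array, where the median of its line was 654.5, and without that array the difference was -0.81 (limma adjusted p = 0.0153). Between RCC4 and H1299, 10 were called, 6 higher and 4 lower, at a background of 33.2%. After TRIM22 and PSMB8 came the secreted glycoprotein LGALS3BP with 1.53, HLA-DMA with 1.28 and the kinase JAK1 with 0.83. LGALS3BP was the only call between HCT116 and H1299, at 1.27 (limma adjusted p = 0.00937), at a background of 7.28%.

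The second comparison asks how VHL loss bears on these genes. Over all 20 RCC4 arrays, 8 of the 17 members were lower in VHL-null than in VHL-restored cells and none was higher: ADAR, TAPBP, IFITM1, ISG15, B2M, IRF9, HLA-B and HLA-F. The differences were small, from -0.15 to -0.32. IFIT3 and BST2, under the filter, went the other way. The comparison matched 10 pairs of arrays at the same time and in the same set, 4 in set 1 and 6 in set 2, so its p-values measure repeatability over times and not over clones, and any further difference between these cell populations cannot be told apart from that of VHL. At a background of 34.2% of genes called, 21.6% lower, 8 of 17 is again no result about the list as a whole. The median over the 17 members was -0.12, against -0.05 over all genes. Without centring, 62.5% of all calls were higher in VHL-null cells in place of 36.7%, while the 8 members kept their sign.

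ADAR had the largest difference. In VHL-null cells it ran from 512 over a median of 913 to 1087, and in VHL-restored cells from 624 over 1077.5 to 1164. These ranges overlap, but within set 1 they did not (512 to 590 against 624 to 762), and the VHL-null array was lower in all 10 pairs in centred values. The mean difference was -0.32 (SE 0.051, limma adjusted p = 0.00016), and its call held under all 19 alternatives. TAPBP ran from 358 over 722 to 905 and from 441 over 880 to 1077. It was lower in 10 of 10 pairs as well, by -0.31 (SE 0.053, limma adjusted p = 0.000338), called under 18 of 19 alternatives.

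ISG15 ran from 130 over 185 to 252 in VHL-null and from 144 over 216 to 290 in VHL-restored cells, with a difference of -0.24 (limma adjusted p = 0.000149). IFITM1 ran from 296 over 317 to 365 and from 320 over 370 to 443, with -0.26 (limma adjusted p = 0.00113). Both were lower in 10 of 10 pairs, so that 4 of 17 members had all pairs lower, where 8.02% of all genes did. B2M was lower in 9 of 10 pairs, by -0.22 (limma adjusted p = 0.00103), with 1307, 1601 and 1924 against 1611, 1744.5 and 1914 as lowest, median and highest. Set 1 held no overlap for B2M: the VHL-null arrays lay at 1307 to 1443 and the VHL-restored arrays at 1611 to 1741.

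IRF9 had 317, 367.5 and 429 as lowest, median and highest in VHL-null and 342, 431.5 and 489 in VHL-restored cells. HLA-B had 1055, 1300 and 1689 against 1062, 1481 and 1768, and HLA-F 301, 328 and 376 against 316, 352 and 383. All of these ranges overlap. IRF9 (-0.21, limma adjusted p = 0.00479), HLA-B (-0.18, limma adjusted p = 0.026) and HLA-F (-0.15, limma adjusted p = 0.0149) were lower in 8 of 10 pairs each. The calls held under 17, 13 and 16 of 19 alternatives, with adjusted p up to 0.895, 0.60 and 0.892. Those of ISG15, IFITM1 and B2M held under 18, 17 and 17. Here the array set mattered. In set 2 the mean pair differences of IRF9, HLA-B and HLA-F were -0.34, -0.26 and -0.24. In set 1 they were -0.02, -0.06 and -0.02. IFITM1 was similar, with -0.38 in set 2 and -0.09 in set 1. ADAR (-0.34 and -0.30), B2M (-0.19 and -0.27), ISG15 (-0.29 and -0.17) and TAPBP (-0.37 and -0.22) were lower in both. With set 1 alone 3 members were called: ADAR and B2M lower, and IRF7 higher by 0.19 (limma adjusted p = 0.039). Over all 20 arrays IRF7 was higher in 9 of 10 pairs and not called (0.10, limma adjusted p = 0.109).

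IFIT3, read like BST2 from the brighter of 2 probe sets, showed the opposite sign. It ran from 185 over 289 to 370 in VHL-null and from 77 over 169 to 322 in VHL-restored cells, and it was higher in the VHL-null array of all 10 pairs, which 5.86% of the genes tested showed. With all 12690 genes tested the difference was 0.68 (SE 0.14, limma adjusted p = 0.00412), at a background of 22.8%. With set 1 alone it was 0.53 and not called (limma adjusted p = 0.17), the only 1 of 17 alternatives that ended the call. The pairs were near equal at 0 h, with differences of 0.20 and 0.02, and were 0.96 and 0.63 apart at 18 h and 1.52 after 4 h of reoxygenation. The difference did not grow steadily with time. It was 0.76 at 1 h, 0.08 at 2 h, 1.27 at 4 h, 0.88 at 6 h and 0.46 after 1 h of reoxygenation. BST2 was higher in 8 of 10 pairs, by 0.31 (limma adjusted p = 0.0126), at 182 to 383 with a median of 284.5 against 129 to 358 with a median of 189. IFI44, of unsettled function, was lower in 9 of 10 pairs, by -0.29 (limma adjusted p = 0.0167). The call of BST2 held under 16 of 17 alternatives and that of IFI44 under 13 (adjusted p up to 0.121).

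**Figure D3:**
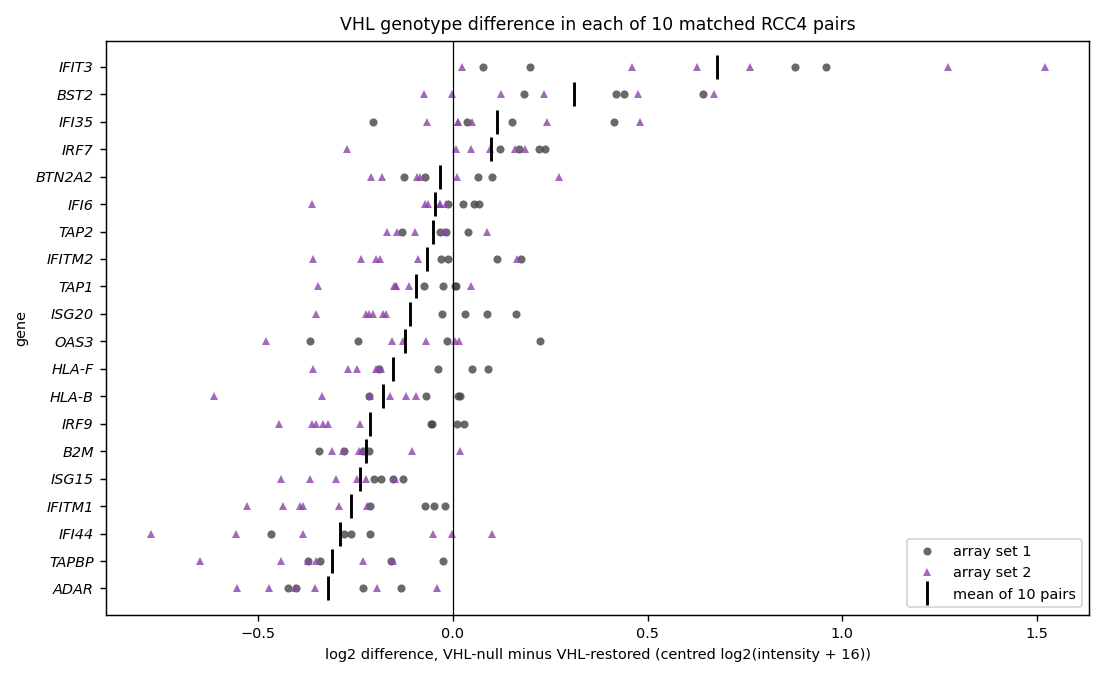
Difference between the VHL-null and the VHL-restored array (centred log2(intensity + 16), x axis) in each of 10 pairs of RCC4 arrays matched by time and set, for 20 genes (y axis), with array set 1 as circles, set 2 as triangles and a bar at the mean. All 10 points lie below 0 for ADAR, TAPBP, IFITM1 and ISG15 and above 0 for IFIT3.

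Of the 33 other pathway genes tested, 12 were called over the 20 arrays, 9 lower and 3 higher in VHL-null cells. The background was 34.2% of all genes, 21.6% lower, so this number too is no result about the pathway. LGALS3BP was lowest, at -0.47 (limma adjusted p = 1.79e-05), with 808 to 1028 in VHL-null and 1039 to 1424 in VHL-restored cells, which did not overlap. HLA-DMA (-0.35) and the ubiquitin ligase TRIM25 (-0.21) were lower too. TRIM22 (0.33) and the transcription factor STAT3 (0.24) were higher.

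At single times the 2 arrays per genotype, fitted without their pairing, gave little power. At 0 h no member was called, at a background of 0.118%, and none had an unadjusted p under 0.05. With the replicate number as a block, which equals the array set at these times, 2 members were called, both lower, at a background of 7.51%, with 4.41% lower: ADAR by -0.40 (limma adjusted p = 0.0234) and TAPBP by -0.39 (limma adjusted p = 0.0298). In this blocked fit 4 members and 1313 genes in all had an unadjusted p under 0.05. ADAR had 551 and 978 in VHL-null and 762 and 1157 in VHL-restored cells, and TAPBP 358 and 718 against 476 and 872, in replicates 1 and 2. Each replicate was thus lower without VHL. The wider gap in intensity between the replicates includes that of the array sets, as replicate 2 is of the brighter set 2. In centred values the genotype differences in replicates 1 and 2 were -0.40 and -0.41 for ADAR and -0.34 and -0.44 for TAPBP. With the block and no filter neither was called (limma adjusted p = 0.23 and 0.251). Over 16 alternatives, the block among them, the adjusted p of ADAR ranged from 0.0234 to 1.00 and that of TAPBP from 0.0298 to 1.00.

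At 18 h no member was called either, at a background of 0.0263%, and 1 member, IFI35, had an unadjusted p under 0.05. With the block IFI35, a cytoplasmic partner of NMI, was called higher without VHL, by 0.45 (limma adjusted p = 0.00995), at a background of 7.59%, with 3.62% higher. In this blocked fit 5 members and 1363 genes in all had an unadjusted p under 0.05. With the block and no filter IFI35 was not called (limma adjusted p = 0.154). Its intensities at 18 h were 154 and 253 in VHL-null and 110 and 162 in VHL-restored cells. At 0 h they were 122 and 221 against 149 and 193, where the replicates disagree in sign.

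The third comparison is hypoxia itself in RCC4. After 18 h, limma called 0 of 17 members in VHL-restored cells (background 0.0394%) and 0 in VHL-null cells (background 0%). Without the block, unadjusted p under 0.05 were found for 214 and 51 genes and for 0 members. With the block the backgrounds were 6.58% and 0.486%, and still 0 members were called. Unadjusted p under 0.05 were then found for 1285 and 641 genes, 3 members among them in each genotype. The members' medians were 0.06 and 0.10, against 0.05 and 0.02 for all genes. HLA-B had the largest difference in VHL-restored cells, 0.36 (SE 0.21), with 1122 and 1269 at 0 h and 1294 and 1699 at 18 h, and a blocked limma adjusted p of 0.0616. In VHL-null cells it was TAPBP with 0.35 (SE 0.25), at 358 and 718 against 448 and 900, and a blocked limma adjusted p of 0.183. Each of these genes was higher at 18 h in both replicates. In centred values TAPBP rose by 0.28 and 0.43 within replicates 1 and 2 of VHL-null cells. The gap in intensity between its replicates includes that of the array sets.

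IFIT3 had 183 and 322 at 0 h and 112 and 214 at 18 h in VHL-restored cells, a difference of -0.55 that was not called (limma adjusted p with the block and no filter 0.166). In VHL-null cells it was 204 and 370 at 0 h and 236 and 369 at 18 h. The difference between these responses was 0.68 and was not called (limma adjusted p with the block and no filter 0.997). Among the tested members the response differed most between genotypes for IFI35, by 0.54. No member was called in this interaction, at backgrounds of 0% and, with the block, 0.565%. Without the block 45 genes, IFI35 the 1 member among them, had an unadjusted p under 0.05. With the block 450 genes had one, with 2 members among them.

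**Figure D4:**
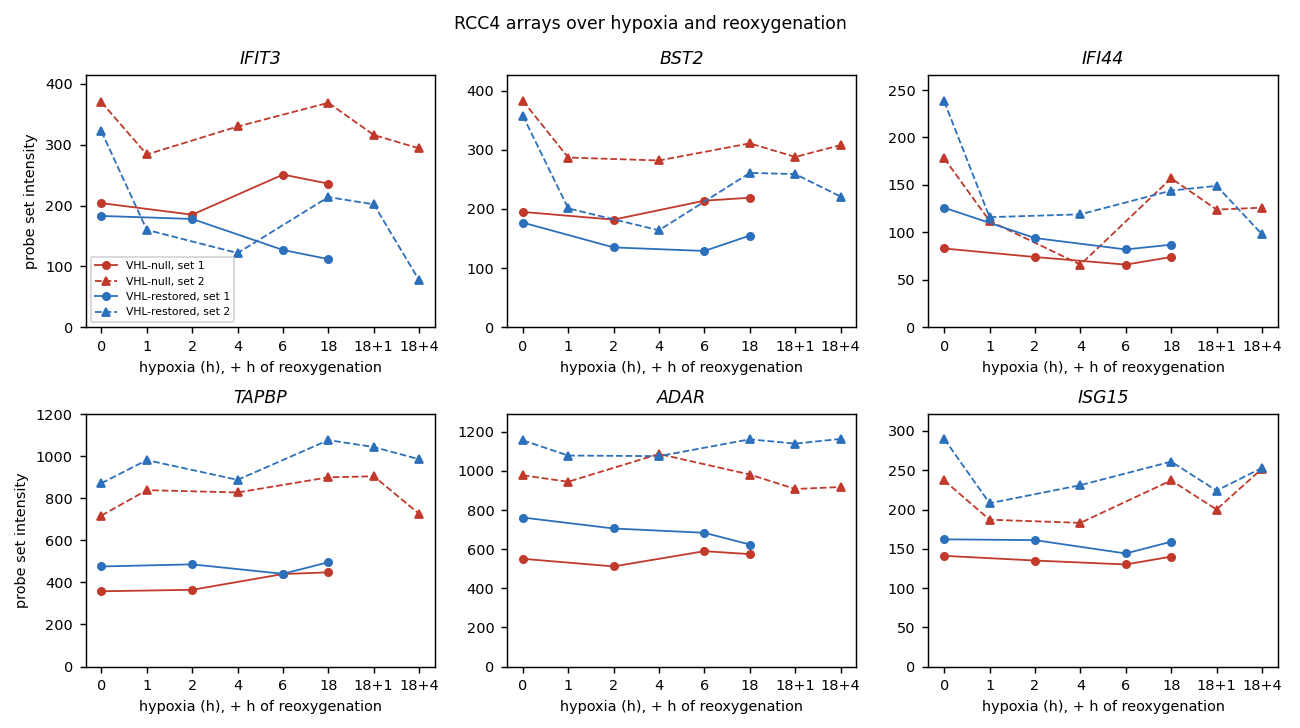
Probe set intensity (linear, y axis) of 6 genes in RCC4 over the hours of hypoxia and of reoxygenation after 18 h (x axis, times equally spaced), with VHL-null in red, VHL-restored in blue, set 1 as circles with full lines and set 2 as triangles with broken lines. TAPBP, ADAR and ISG15 are brighter on all arrays of set 2 than of set 1, while IFIT3, BST2 and IFI44 overlap between the sets. IFIT3 is lower in VHL-restored cells at every matched time, and within a set TAPBP and ISG15 are lower in VHL-null cells at every time and ADAR at all but 4 h.

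Between 18 h of hypoxia and 4 h of reoxygenation, 0 of 17 members were called, at a background of 2.63%, and 2 had an unadjusted p under 0.05. B2M was higher by 0.26 (limma adjusted p = 0.149) and ISG15 by 0.25 (limma adjusted p = 0.109). In intensity both moved little: ISG15 was 237 and 261 at 18 h and 252 and 253 after reoxygenation, in VHL-null and VHL-restored cells of set 2, and B2M was 1692 and 1900 against 1754 and 1773. The intensities of these genes thus moved little or not in one direction in both genotypes. Without centring, all genes shifted by -0.17, and 4 members, IFI6, IRF9, ISG20 and TAP2, were called lower.

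The fourth comparison is p53 in HCT116 and H1299. No member was called in HCT116, at a background of 0.0131% or 1 gene, and 4 had an unadjusted p under 0.05: ISG15 (0.37, limma adjusted p = 0.568), OAS3 (0.40, limma adjusted p = 0.775), B2M (0.27, limma adjusted p = 0.775) and HLA-B (0.47, limma adjusted p = 0.827), all higher with p53. In centred values ISG15, B2M and HLA-B lay above on all 3 wild-type arrays without overlap, 3 of 17 members against 4.48% of all genes, and no member lay below without overlap, against 3.17%. The 3 arrays of a genotype are different times and no replicates of one condition. OAS3 overlapped only in that the p53-null array at 24 h (103) lay above the wild-type array at 12 h (99).

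In H1299 limma called 0 members and 0 of the 7614 genes, a background of 0%, and 293 genes but 0 members had an unadjusted p under 0.05. BTN2A2 had the largest difference, -0.64 (SE 0.35). B2M was 630 and 665 without and 588 and 606 with p53, and HLA-B 324 and 447 against 483 and 370, where the times disagree in sign. The p53 difference was also compared between the lines, where limma called 0 members and 0 genes and 259 genes had an unadjusted p under 0.05. B2M, with a difference of 0.39, was the 1 member among them.

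After 24 h of hypoxia no member was called in HCT116, at a background of 0.0788%, while 4 had an unadjusted p under 0.05, and none was in H1299, at a background of 0.0263%. In HCT116 BTN2A2 was 652 at 0 h and 216 at 24 h in p53-null, and 289 and 217 in p53 wild-type cells (log2 difference -0.95, limma adjusted p = 0.251). ISG20 was 1291 and 561 without p53 and 729 and 582 with it (-0.74, limma adjusted p = 0.2). OAS3 was 58 and 103 without p53 and 109 and 123 with it (0.43, limma adjusted p = 0.221). In these genes 1 array stood apart: the untreated p53-null HCT116 array was the highest of the line for ISG20 and BTN2A2 and the lowest for OAS3 and IFITM2. Over 16 alternatives the difference ran from -1.50 to -0.40 for BTN2A2 and from -1.17 to -0.30 for ISG20. In H1299 BTN2A2 was 532 and 256 without p53 and 231 and 233 with it.

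**Figure D5:**
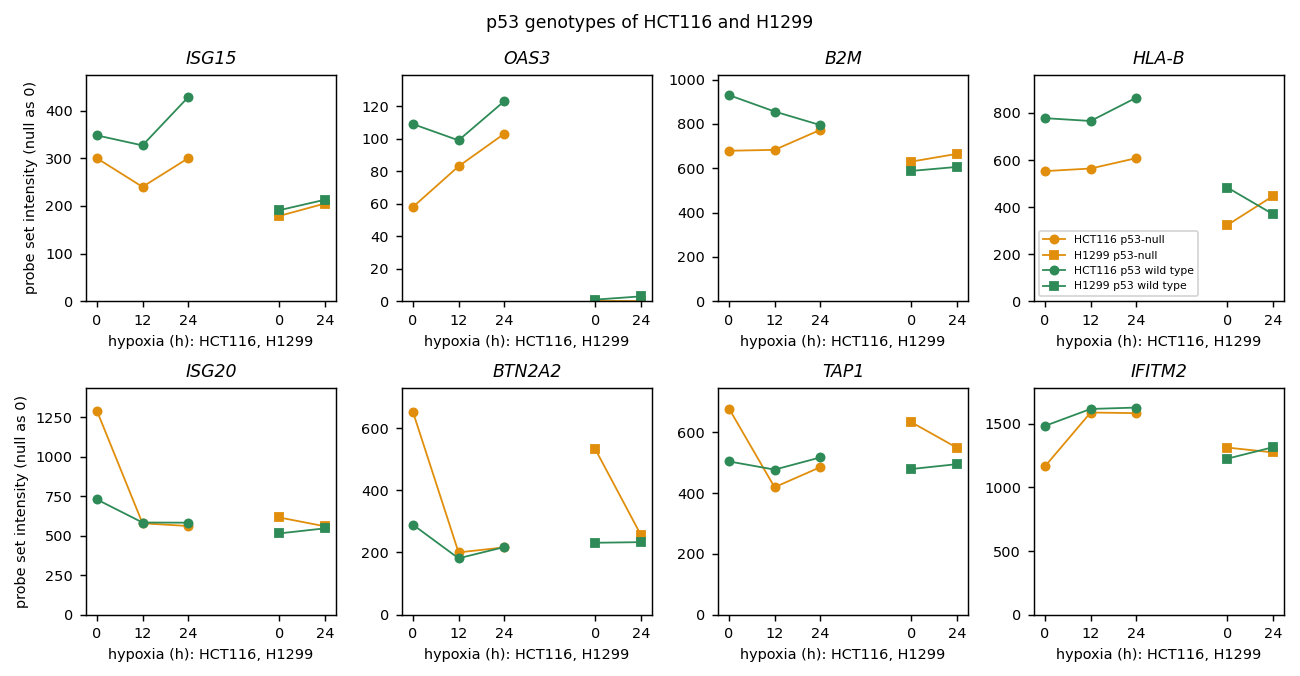
Probe set intensity (linear, null as 0, y axis) of 8 genes over hours of hypoxia (x axis) in HCT116 (circles) and H1299 (squares), with p53-null in orange and p53 wild type in green, and 1 array per point. ISG15, B2M and HLA-B are higher with p53 at each time in HCT116, and ISG20 and BTN2A2 are high on the untreated p53-null HCT116 array, BTN2A2 also on that of H1299.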

How the data were processed

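RNA of 30 cultures was measured on a custom Affymetrix array, and each group is named as in the sample labels. The deposited values are linear intensities, 1 per probe set, which the authors had made from the scans. How they were scaled and what a null entry means are not given in the sources used here. Of 35409 probe sets, 16905 were annotated to a single gene, and the brightest per gene gave 12690 genes. Null was set to 0, values were taken as log2(intensity + 16) and each array was centred on its median gene. The upper 60% of genes by mean (7614) were tested.

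The fits used limma 3.58.1 in R 4.3.3, with Benjamini-Hochberg adjustment over all genes tested and a threshold of 0.05, and were tested on simulated data. Lines were compared on the 8 untreated arrays with the array set as a term, VHL genotypes and reoxygenation on the 20 RCC4 arrays with genotype, time and set as terms, hypoxia at 18 h on 8 arrays, and p53 and 24 h on the 10 arrays of HCT116 and H1299. Replicate numbers at 0 h and 18 h equal the array sets, and replicate differences correlated between groups over genes at 0.794 to 0.916 (6 pairs of groups). The numbers were therefore taken to pair the arrays, and the blocked fit is given where it changed a call. No p-value covers more than the spread among these arrays, and where times stand in for replicates the spread over times.

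All members were named. Values were given for those called in a comparison by either fit, or else for up to 6 with the largest difference, and for up to 5 of the 80 other pathway genes. Members and lists were chosen with earlier results of these data known. The alternatives were other pseudocounts (1 and 64), no filter, no centring, quantile normalization, the mean of a gene's probe sets, single array sets, no set term, all 30 arrays, and leaving out each array or pair. Single arrays carry no replicate check, and the number of arrays limits the precision.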

Additional observations from a re-analysis of the deposited data

Results flagged for a closer look

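Each tested member was looked at in groups of 4 to 6 arrays for 1 array far from the rest, measured as the gap to its nearest neighbour over the range of the group in centred log2 values. Of 102 groups 10 passed Dixon's critical value. Chance gives about 1 in 20 where the arrays of a group are independent replicates. Here they differ in time, in HCT116 and H1299 also in p53 genotype, and the members share arrays. That rate is therefore no measure for these 10.

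The untreated p53-null HCT116 array was the highest of its line for ISG20 (ratio 0.699, intensity 1291 against 561 to 729) and BTN2A2 (ratio 0.657, 652 against 181 to 289). The same array was the lowest for IFITM2 (ratio 0.666, 1167 against 1485 to 1629). The untreated p53-null H1299 array was the highest of its line for BTN2A2 (ratio 0.870, 532 against 231 to 256). ADAR was highest on the p53-null H1299 array at 24 h (ratio 0.950, 548 against 482 to 487).

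In VHL-restored RCC4 of set 1, ISG15 was lowest at 6 h (ratio 0.860, 144 against 159 to 162). In VHL-restored RCC4 of set 2, HLA-B was lowest at 0 h (ratio 0.658, 1269 against 1668 to 1768). On the array at 4 h of reoxygenation in the same set, IFI6 (ratio 0.642, 275 against 262 to 293) and OAS3 (ratio 0.657, 442 against 361 to 437) were highest in centred values, although the intensity of IFI6 lay within the range of the others. HLA-F was highest in VHL-null RCC4 of set 1 at 0 h (ratio 0.955, 354 against 321 to 328).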

How the results depend on the processing

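Of 1214 alternatives for single genes, 1122 kept direction and side of the threshold, 75 lost a call, 5 gained one and 12 changed sign, none of them in a called difference. The cause was not tested unless given. The numbers of members called that moved by over 1.5 times were as follows. With no filter, 4 were called after reoxygenation in place of 0 (ISG15, and MX2, OAS2 and HLA-E, which are null on all arrays, so that their 0.24 is the centring alone), 8 between RCC4 and H1299 in place of 5, and 1 between HCT116 and H1299 in place of 2. Without centring 4 were called after reoxygenation. With quantile normalization 1 was called between HCT116 and H1299. With all 30 arrays these became 4, and those between RCC4 and H1299 became 8. The VHL genotypes gave 3 in place of 8 with set 1 alone and 3 without the set term. The median between RCC4 and HCT116 was 0.0070 in place of 0.19 with members listed on every array.

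With the replicate block, 2 members in place of 0 were called between VHL genotypes at 0 h and 1 in place of 0 at 18 h, and the block changed no other call. With the block and no filter, 0 were called at either time. Leaving out single arrays or pairs gave 2 to 8 calls between RCC4 and HCT116, 4 to 7 between RCC4 and H1299, 1 to 2 between HCT116 and H1299, 7 to 9 between VHL genotypes over 20 arrays, and 0 to 0 in the other comparisons.

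The changes of sign were these. ADAR after reoxygenation was -0.017 without centring, and OAS3 in the p53 difference between lines was -1.03 with a pseudocount of 1 and -0.0029 without the 0 h arrays of both lines. Leaving out single arrays, with no block, the difference of the hypoxia responses by VHL ran from -0.028 to 0.35 for ADAR and from -0.40 to 0.057 for HLA-B, and the p53 difference between lines from -0.089 to 0.75 for HLA-B. The response to 18 h ran from -0.053 to 0.50 for OAS3 in VHL-null and from -0.069 to 0.52 for TAPBP in VHL-restored cells, and that to 24 h in H1299 from -0.996 to 0.0067 for BTN2A2. Within replicates the sign held for OAS3 (0.32 and 0.13) and TAPBP (0.09 and 0.36). The alternatives without 0 h arrays, those of TRIM22 and OASL, of IFIT3, BST2, MX1 and IFI44 with no filter, and the block with no filter, were chosen after seeing the data. Dim and null values limit OAS3 in H1299, IFIT3, BST2 and TRIM22 outside RCC4, and MX1 in RCC4. There the size of a difference follows the pseudocount.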
